A study of Mus musculus with 9 samples.

Results

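The mRNAs examined here code for 9 enzymes that carry carbon from acetyl-CoA to squalene epoxide: Acat2, Hmgcs1, Mvk, Pmvk, Mvd, Idi1, Fdps, Fdft1 and Sqle, in pathway order. They were chosen by name, as members of the pathway, with earlier results of these data known. They make up 9 of the 48440 genes in the count tables. All 9 were expressed well enough to be tested. The cells were J1, a mouse embryonic stem cell line, in which Suz12, a core protein of the Polycomb repressive complex PRC2, carries an auxin-inducible degron (genotype Suz12-AID). This tag marks the protein for destruction when auxin, a plant hormone, is present. The genotype was the same in every group. Mock cells had the Mock treatment. Auxin cells were kept in 50 µM auxin for 96 h, and Reintroduction cells then had auxin washed out for 4.5 h. All cells grew on gelatin in medium with 15% fetal bovine serum, LIF and the 2i inhibitors PD0325901 (1 µM) and CHIR99021 (3 µM). Each group held 3 libraries, described as biological replicates, and the labels name no separate cultures, so p-values measure the spread between these libraries. In bulk RNA, fewer cells that express a gene and less of its RNA per cell cannot be told apart.

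The mevalonate pathway makes the isoprenoid units from which cells build cholesterol, ubiquinone, dolichol and the lipid anchors of prenylated proteins. Its early steps join acetyl-CoA units into mevalonate, kinases and a decarboxylase turn mevalonate into isopentenyl diphosphate, and prenyl transferases condense this into farnesyl diphosphate and squalene. Squalene epoxidase then makes the first oxygenated intermediate that is committed to sterols. As background, transcription of these enzymes is known to be driven by SREBP2, the product of Srebf2, which is released from the endoplasmic reticulum when sterols are scarce and often acts beside the factors NF-Y and Sp1. INSIG proteins hold it back when sterols are plentiful.

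Promoter sequences are shown for 5 of the 9 genes. These are the members with 1 promoter window each in the RefSeq table (GRCm38.p6, the assembly also called mm10). Each window runs from 250 bases before to 50 bases after the RefSeq start, 5′ to 3′ on the gene's strand. They lie at chr17:12960676-12960975 (minus strand) for Acat2, chr13:119690101-119690400 (plus) for Hmgcs1, chr5:114444019-114444318 (plus) for Mvk, chr8:122443373-122443672 (minus) for Mvd and chr13:8885356-8885655 (plus) for Idi1. Capitals mark every match, on either strand, to 3 motifs: CCAAT, which is the core of an NF-Y site, GGGCGG, which is the core of an Sp1 site, and a form of the sterol regulatory element that reads TCACNCCAC.
Acat2: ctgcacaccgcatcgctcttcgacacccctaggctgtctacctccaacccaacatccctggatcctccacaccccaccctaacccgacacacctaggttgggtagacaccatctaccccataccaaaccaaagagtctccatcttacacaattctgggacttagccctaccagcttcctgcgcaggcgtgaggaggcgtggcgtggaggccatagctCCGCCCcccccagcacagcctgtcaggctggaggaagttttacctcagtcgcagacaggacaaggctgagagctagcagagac
Hmgcs1: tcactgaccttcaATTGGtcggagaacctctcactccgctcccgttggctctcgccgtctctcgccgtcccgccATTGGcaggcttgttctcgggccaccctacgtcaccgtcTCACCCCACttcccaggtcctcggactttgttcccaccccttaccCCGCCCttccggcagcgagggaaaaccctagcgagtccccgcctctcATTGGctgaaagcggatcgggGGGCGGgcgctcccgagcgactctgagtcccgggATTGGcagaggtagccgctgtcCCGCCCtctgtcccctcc
Mvk: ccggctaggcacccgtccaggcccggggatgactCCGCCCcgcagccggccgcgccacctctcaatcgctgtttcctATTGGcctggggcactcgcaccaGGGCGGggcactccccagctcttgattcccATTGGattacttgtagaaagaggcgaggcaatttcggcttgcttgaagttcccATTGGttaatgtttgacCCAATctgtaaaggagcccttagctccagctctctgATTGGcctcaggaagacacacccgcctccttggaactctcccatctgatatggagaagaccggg
Mvd: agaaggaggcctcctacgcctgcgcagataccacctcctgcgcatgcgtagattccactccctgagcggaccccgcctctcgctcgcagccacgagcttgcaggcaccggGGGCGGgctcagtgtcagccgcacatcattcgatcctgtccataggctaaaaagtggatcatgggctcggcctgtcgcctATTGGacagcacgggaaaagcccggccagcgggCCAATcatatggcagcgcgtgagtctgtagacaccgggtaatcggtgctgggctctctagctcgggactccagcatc
Idi1: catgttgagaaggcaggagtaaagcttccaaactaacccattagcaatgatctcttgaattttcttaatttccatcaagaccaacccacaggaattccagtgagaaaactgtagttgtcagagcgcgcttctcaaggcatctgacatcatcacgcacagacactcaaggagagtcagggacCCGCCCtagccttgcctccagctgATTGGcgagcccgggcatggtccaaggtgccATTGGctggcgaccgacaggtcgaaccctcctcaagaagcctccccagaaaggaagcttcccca
CCAAT was found 4 times in the Hmgcs1 window, 5 times in that of Mvk, 2 times each in those of Mvd and Idi1, and 0 times in that of Acat2. Of all 32851 promoter windows of this length in the table, 37.4% held at least 1 match, 11.7% at least 2 and 1.06% at least 4. GGGCGG was found 3 times in the Hmgcs1 window, 2 times in that of Mvk and 1 time in each of the other windows shown, against at least 1 match in 35.7% of all windows. TCACNCCAC was found in the Hmgcs1 window, beginning 137 bases before the start, and in 1.24% of all windows. A longer form of the sterol regulatory element, of 10 letters, was also searched for and had 0 matches in the members' windows and matches in 0.0913% of all. Pmvk has 2 windows in the table, with 1 CCAAT between them and no match to the other motifs. Fdps, Fdft1 and Sqle were not analysed here for promoter sequence. A match is a run of letters and was not tested as a binding site.

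Levels are given as CPM, a gene's counts divided by the library's total after scaling with a TMM factor, and multiplied by the same constant throughout. The TMM factors differed between libraries, so the CPM of all genes did not add to the same sum in each. Total counts per library lay between 44341283 and 113931419, and each mate of a read pair was counted. The 9 mRNAs together summed to 840.8 to 863 CPM in the Mock libraries, 304.2 to 322.6 CPM in the Auxin libraries and 1299 to 1376 CPM in the Reintroduction libraries. The 3 groups did not overlap in this sum. The mRNA of Suz12 was at 133.1 ± 6.62 CPM in Mock, 141.3 ± 16.9 in Auxin and 167.6 ± 4.47 in Reintroduction. In edgeR's quasi-likelihood test it was not called in Auxin against Mock (adjusted p = 0.349). The same test called it higher in Reintroduction than in Auxin (log2 fold change 0.25, adjusted p = 0.0245) and than in Mock (0.33, adjusted p = 0.00341). The tag acts on the protein, so this mRNA does not check the depletion. Mitochondrial genes took 3.79% to 4.0% of Mock and Auxin counts, against 4.58% to 4.80% after washout. Summed markers of pluripotent stem cells (8 genes, none at 0) were 5240 to 5380 CPM in Mock, 6250 to 6750 in Auxin and 4990 to 5110 in Reintroduction. In Auxin, 5 of these 8 were called higher, Sox2 (1.00) and Tfcp2l1 (0.80) among them, and 3 lower, namely Pou5f1 (-0.53), Dppa4 (-0.29) and Dppa5a (-1.16). Of all genes tested, 38.4% were called higher and 34.8% lower in Auxin against Mock. Summed primitive endoderm markers (5 genes) were 5.44 to 6.84, 18 to 19.1 and 12.6 to 14 CPM. Dab2 (means of 3.54, 9.18 and 8.58 CPM) and Gata4 (1.70, 7.02 and 3.57 CPM) made up most of this sum. All 5 were called higher in Auxin against Mock, as were 38.4% of all genes. Against Auxin, 4 of the 5 were called lower after washout and 1 was not called, where 25.5% of all genes were called lower. In Reintroduction against Mock, 2 of the 5 were called higher, 2 were not called and Gata6 was called lower (-1.06). Of all genes, 34.7% were called higher and 33.4% lower there. Summed fibroblast markers (5 genes) were 17.8 to 20, 39.1 to 46.4 and 37.4 to 38.8 CPM. Thy1 made up nearly all of the last sum, Col1a1 was at most 0.483 CPM in any library, and Col3a1 was at 0 in all Auxin libraries. The part of these differences in the results below was not tested.

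**Figure D1:**
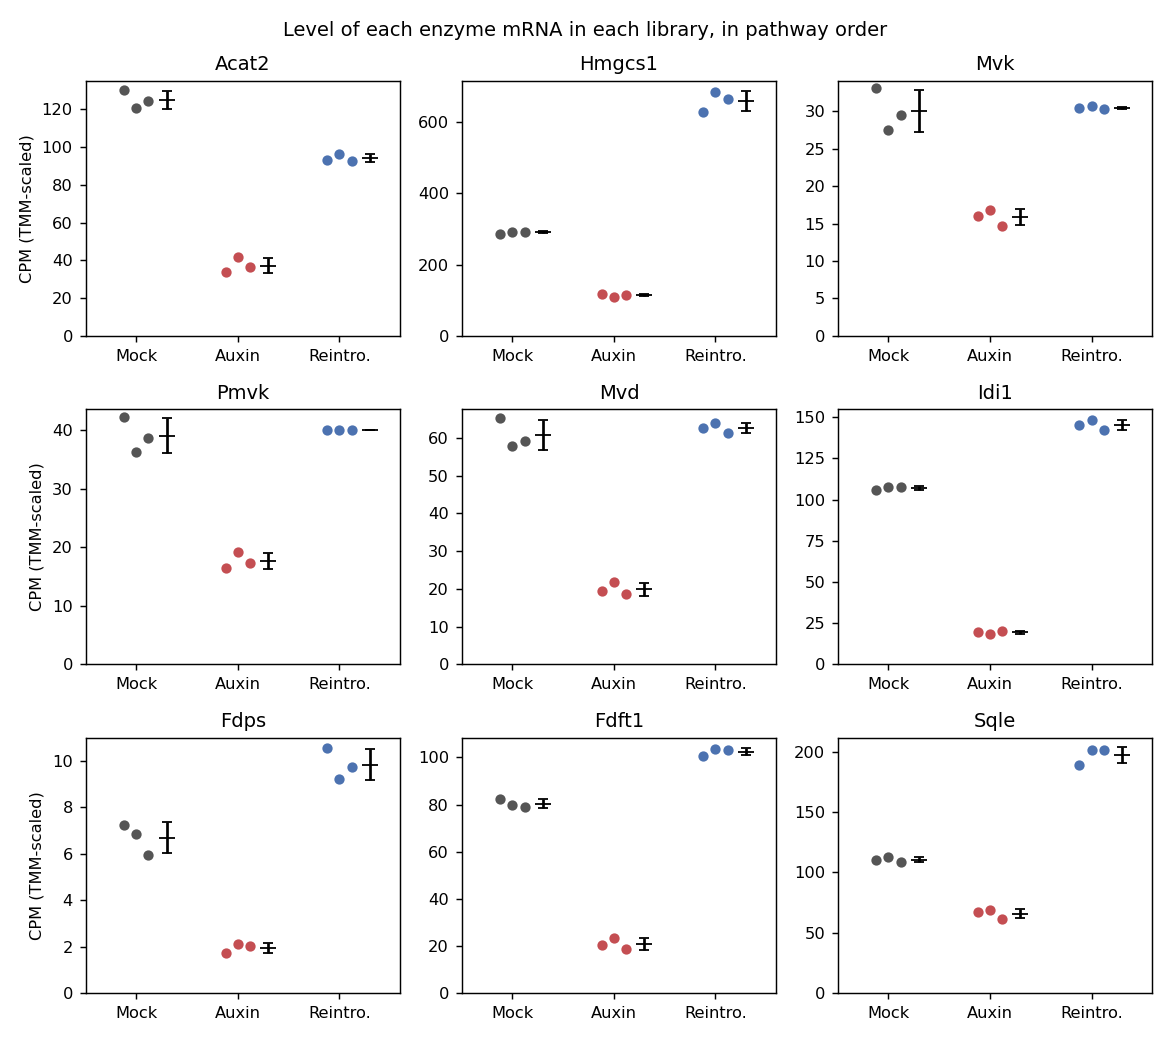
Level of each of the 9 mRNAs (CPM, vertical axis from 0) in each library, with the mean and SD of 3 libraries beside the points. For every enzyme the 3 Auxin libraries lie below all Mock and all Reintroduction libraries, while Reintroduction lies above Mock for Hmgcs1, Idi1, Fdps, Fdft1 and Sqle and below it for Acat2.

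In Auxin against Mock, all 9 mRNAs fell (edgeR quasi-likelihood test, adjusted p under 0.05), by 0.75 to 2.46 on the log2 scale. Of all 20838 genes tested, 34.8% were called lower in this comparison, and 35.8% had Auxin libraries that all lay below the Mock libraries, as was the case for all 9 enzymes. The median log2 fold change was -1.60 over the 9 and 0.05 over all genes. The steepest fall was that of Idi1, in the middle of the pathway, and the shallowest that of Sqle. With length and GC trends removed, Mvk (-0.72) and Pmvk (-0.80) fell less than Sqle (-0.93).

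Idi1, the isomerase that interconverts the isoprenoid building blocks (ENSMUSG00000058258.14; mm10 chromosome 13, 8885501 to 8892451), had 105.8, 107.8 and 107.6 CPM in Mock replicates 1 to 3, and 19.66, 18.56 and 20.01 CPM in Auxin. The Auxin level was 18.1% of the Mock level, and edgeR's quasi-likelihood test gave -2.46 on the log2 scale (SE 0.051, adjusted p = 7.80e-11). Sqle, squalene epoxidase (ENSMUSG00000022351.14; chromosome 15, 59315077 to 59331192), had 110, 112.5 and 108.7 CPM in Mock, close to Idi1, but 66.88, 68.45 and 61.46 CPM in Auxin. Its Auxin level was 59.4% of Mock, or -0.75 in log2 (SE 0.055, adjusted p = 2.54e-07). The ratio of Sqle counts to Idi1 counts within a library does not depend on how libraries are scaled. It was 1.03 ± 0.0179 in Mock and 3.39 ± 0.308 in Auxin (SD, n = 3 each), without overlap. An exact two-sided permutation test of the logged ratio gave p = 0.1, the smallest value that 3 libraries against 3 allow. Over the 12 tests made (4 such ratios, chosen after their values were seen, in 3 comparisons), its Benjamini-Hochberg adjusted value was 0.109, shared by every test with that p.

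At the entry of the pathway, Acat2 codes for the cytosolic thiolase that joins acetyl-CoA units (ENSMUSG00000023832.13; chromosome 17, 12942890 to 12960747). Its Mock libraries had 130.1, 120.7 and 124.3 CPM and its Auxin libraries 33.82, 41.77 and 36.3 CPM, which is -1.75 in log2 (SE 0.074, adjusted p = 3.89e-09). Hmgcs1, the cytosolic HMG-CoA synthase (ENSMUSG00000093930.1; chromosome 13, 119690462 to 119708086), had 286.9, 291.6 and 292.5 CPM in Mock and 116.4, 110.4 and 115.4 CPM in Auxin, which is -1.35 in log2 (SE 0.052). Hmgcs1 was the most abundant member in every group. Per kb of exon length, and without the gene copies described below, its level was 89.8 CPM in Mock, against 49.2 for Acat2, the next.

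The genes for the steps from mevalonate to isopentenyl diphosphate fell by 0.93 to 1.60 on the log2 scale. Mvk, mevalonate kinase (ENSMUSG00000041939.14; chromosome 5, 114444269 to 114460591), had 33.08, 27.48 and 29.49 CPM in Mock and 15.95, 16.81 and 14.68 CPM in Auxin (log2 fold change -0.93, SE 0.076). Pmvk, which adds the next phosphate (ENSMUSG00000027952.16; chromosome 3, 89454541 to 89469013), had 42.26, 36.38 and 38.68 CPM in Mock and 16.46, 19.26 and 17.31 CPM in Auxin (-1.15, SE 0.073). Mvd, the decarboxylase (ENSMUSG00000006517.4; chromosome 8, 122433596 to 122443422), had 65.19, 57.76 and 59.13 CPM in Mock and 19.43, 21.86 and 18.55 CPM in Auxin (-1.60, SE 0.072). Mock replicate 1 was the highest Mock library and Auxin replicate 2 the highest Auxin library for each of these genes, yet the groups stayed apart.

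Fdft1, squalene synthase (ENSMUSG00000021273.9; chromosome 14, 63145153 to 63177793), had 82.49, 79.64 and 78.81 CPM in Mock and 20.29, 23.43 and 18.51 CPM in Auxin, which is -1.95 in log2 (SE 0.077, adjusted p = 2.39e-09). It shares exon sequence with Ctsb, a lysosomal protease gene on the other strand, and strand was not used in counting. Ctsb moved the other way, from 126.7 ± 6.43 to 196.5 ± 16.7 CPM (n = 3 each), and went down to 112.6 ± 1.5 CPM after washout. Fdps, farnesyl diphosphate synthase (ENSMUSG00000059743.12; chromosome 3, 89093588 to 89101959), was the least counted member, with 7.26, 6.857 and 5.945 CPM in Mock and 1.707, 2.125 and 2.016 CPM in Auxin. Its log2 fold change was -1.78 (SE 0.113, adjusted p = 7.73e-08), from raw counts of 425 to 748 in Mock and 138 to 162 in Auxin. Fdps shares exon sequence with Gm43738, an overlapping gene on the same strand that holds 74.9% of the 75-base runs of the Fdps transcript and had at most 0.0241 CPM in any library. The part of this overlap in the low level of Fdps was not tested. Copies of its sequence elsewhere in the genome are described below.

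In Reintroduction against Auxin, all 9 mRNAs rose, by 0.94 to 2.90 on the log2 scale, with every Reintroduction library above every Auxin library. Of all genes tested, 25.5% were called higher and 28.8% had Reintroduction libraries all above the Auxin libraries. The median was 1.65 over the 9 and 0.003 over all genes. This comparison and the one before it share the Auxin libraries, so their changes are not independent. Idi1 rose most, to 145.1, 148.1 and 142.3 CPM (log2 fold change 2.90, SE 0.052, adjusted p = 1.10e-10), which is 747.9% of its Auxin level. Hmgcs1 reached 626.8, 682.5 and 662.8 CPM (2.53, SE 0.054). Mvk rose least, to 30.38, 30.61 and 30.28 CPM (0.94, SE 0.076, adjusted p = 2.16e-06). Of the others, Fdps rose by 2.34, Fdft1 by 2.30, Mvd by 1.65, Sqle by 1.59, Acat2 by 1.34 and Pmvk by 1.18 on the log2 scale.

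**Figure D2:**
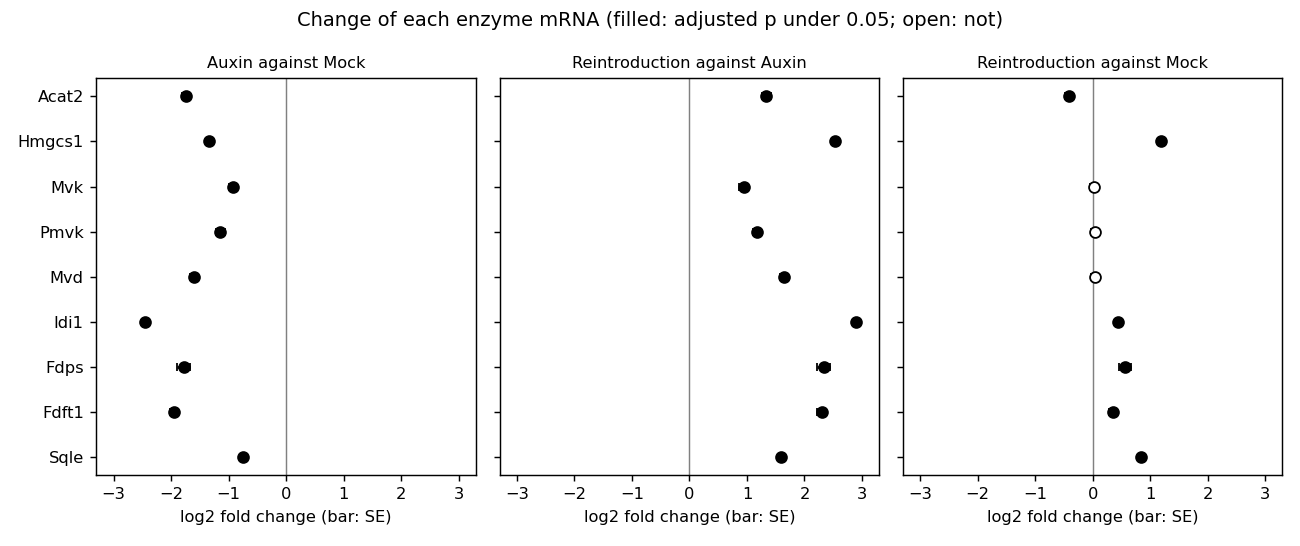
Log2 fold change of each mRNA (horizontal axis, bars are SE) in the 3 comparisons, in pathway order from top to bottom. All 9 points lie left of 0 in Auxin against Mock and right of 0 in Reintroduction against Auxin, whereas in Reintroduction against Mock they spread from -0.41 for Acat2 to 1.18 for Hmgcs1.

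In Reintroduction against Mock, the enzymes parted. Hmgcs1, Sqle, Fdps, Idi1 and Fdft1 were called higher, Acat2 was called lower, and Mvk, Pmvk and Mvd were not called. Of all genes tested, 68.1% were called in this comparison, 34.7% higher and 33.4% lower, so the count of 6 of 9 called is near that background. Hmgcs1 stood at 226.4% of its Mock level (log2 fold change 1.18, SE 0.051, adjusted p = 1.59e-08) and Sqle, at 189.2, 201.3 and 201.2 CPM, at 178.6% (0.84, SE 0.055). Idi1 stood at 135.6% of Mock (0.44, SE 0.048), and Fdft1, at 100.7, 103.4 and 103.3 CPM, at 127.6% (0.35, SE 0.074). Acat2, at 93.38, 96.45 and 92.64 CPM, was at 75.3% of Mock (-0.41, SE 0.072, adjusted p = 4.06e-04). Fdps is described with its copies below. For these 6 genes the Reintroduction libraries lay wholly above or, for Acat2, wholly below the Mock libraries, which held for 38.2% and 37.0% of all genes.

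The first 2 enzymes of the path therefore ended on opposite sides of Mock. The ratio of Hmgcs1 counts to Acat2 counts was 2.21, 2.42 and 2.35 in the Mock libraries, 3.44, 2.64 and 3.18 in Auxin, and 6.71, 7.08 and 7.15 after washout. These ranges did not overlap, and each pair of groups gave p = 0.1 in an exact two-sided permutation test, the smallest value possible here. Mvk, Pmvk and Mvd, the adjoining kinase and decarboxylase steps, stood at 101.4%, 102.4% and 103.1% of Mock, with log2 fold changes of 0.02 (SE 0.075), 0.03 (SE 0.071) and 0.04 (SE 0.070), and with Reintroduction libraries inside the Mock range. Pmvk was at 40.08, 40.01 and 40.05 CPM in Reintroduction and Mvd at 62.6, 63.84 and 61.26 CPM. Levels also tilted with gene length. Per doubling of exon length a gene deviated by -0.246 to -0.168 (log2) in Mock, 0.013 to 0.154 in Auxin and 0.083 to 0.097 in Reintroduction. With length and GC trends removed, Mvk (0.26), Pmvk (0.39) and Mvd (0.39) were called higher, and all 9 members were called, 8 higher and Acat2 lower. Idi1 was then at 0.20, Fdft1 at 0.53 and Acat2 at -0.25.

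As shares of the 9 levels per kb, Hmgcs1 made up 31.23% in Mock, 34.38% in Auxin and 47.76% in Reintroduction, while Acat2 went from 17.09% to 14.29% and 8.69%. Idi1 was the fourth most abundant member per kb in Mock, the eighth in Auxin and the second in Reintroduction. Per kb its level was 30.6 ± 0.321 CPM in Mock, 5.54 ± 0.215 in Auxin and 41.4 ± 0.830 in Reintroduction. In Mock, Idi1 was next to Fdft1 in this order (28.1 ± 0.675 CPM per kb), and in Auxin next to Mvk (5.91 ± 0.400 CPM per kb), from which it differed by less than the SD of Mvk. Sqle and Mvd in Auxin, at 11.8 ± 0.661 and 11.3 ± 0.973 CPM per kb, also differed by less than their SDs. In Mock no neighbours in the order differed by less than their SDs. In Reintroduction Fdft1, Sqle and Mvd, at 35.8 ± 0.542, 35.6 ± 1.25 and 35.5 ± 0.734 CPM per kb, did. Exon length here is the union over all transcripts of a gene, so a gene with rarely used exons has too low a value per kb. Counts on gene copies, described below, are left out of these shares and this order. In Mock, copies held 94.8% to 95.6% of the joint counts for Fdps, 54.5% to 56.3% for Fdft1 and 30.7% to 33.8% for Idi1. Shares and order with copies added were not analysed here.

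**Figure D3:**
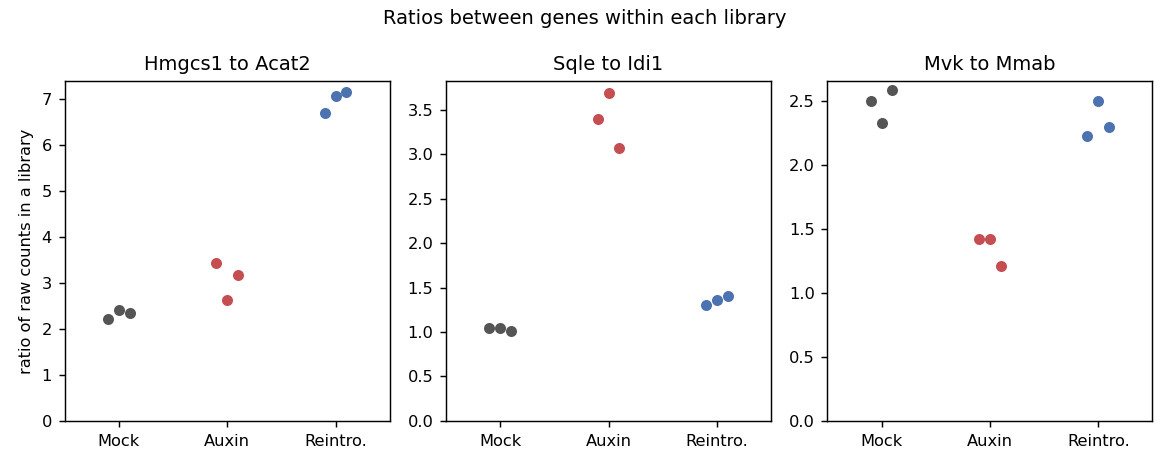
Ratios of raw counts between 2 genes in the same library (vertical axes from 0, 1 point per library), which do not depend on scaling between libraries. Hmgcs1 to Acat2 is highest in Reintroduction, Sqle to Idi1 is highest in Auxin, and Mvk to Mmab is lowest in Auxin.

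Across the 9 libraries, pairs of members had Pearson correlations of log2 CPM between 0.708 (Acat2 with Sqle) and 0.997 (Pmvk with Mvd). Hmgcs1 and Sqle had 0.995. These values mostly restate the differences between the 3 groups and are given as a description. Within groups, Auxin replicate 2 was above the Auxin mean for 7 of the 9 genes, with a median deviation of 0.13 on the log2 scale, and Hmgcs1 (-0.05) and Idi1 (-0.06) were the exceptions. This library also stood apart beyond the members. Its tilt per doubling of exon length was 0.013, against 0.150 and 0.154 in Auxin replicates 1 and 3. Without Auxin replicate 2, the falls from Mock ranged from 0.79 for Sqle to 2.44 for Idi1 and all 9 remained called.

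For 4 members, counts were also deposited on near-identical copies of the gene. These copies were looked for after the low level of Fdps was seen, as annotated processed pseudogenes with a row in the count tables that share at least 10 unbroken runs of 75 bases, the read length, with the member's longest coding transcript, and as the tandem paralog Acat3. Of the runs of 75 bases in the Fdps transcript, 25.5% also occur in the pseudogene Gm3571 (chromosome 10, 93778611 to 93779772), 9.3% in Gm5873 (chromosome 6) and 1.8% in Gm8163 (chromosome X). Gm3571 had 108, 24.1 and 103 CPM in the Mock, Auxin and Reintroduction groups, and Gm5873 had 24.7, 5.49 and 23.7 CPM. The 3 pseudogenes held 94.8% to 95.6% of the combined counts in Mock, 93.5% to 94.4% in Auxin and 92.6% to 93.2% in Reintroduction. Gene counts cannot tell apart reads from the Fdps mRNA and reads from a transcribed copy.

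Read together, Fdps and its copies had 142 ± 13.4 CPM in Mock, 32.2 ± 2.68 in Auxin and 138.7 ± 4.16 in Reintroduction (SD, n = 3 each). The fall in Auxin was then 2.14 (SE 0.081) in place of 1.78 on the log2 scale. The excess over Mock after washout, 0.56 (SE 0.102, adjusted p = 5.25e-04) for the Fdps locus alone, was -0.03 (SE 0.077, adjusted p = 0.711) for the sum. The call of Fdps in Reintroduction against Mock was thus lost when its copies were counted with it.

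The other 3 genes with copies kept their calls in all 3 comparisons. Idi1 and its pseudogenes Gm13502 (chromosome 2, 53696121 to 53696804) and Gm35570 had 157.8 ± 5.02 CPM in Mock, 29.6 ± 1.28 in Auxin and 231 ± 4.42 in Reintroduction, a fall of 2.42 and an excess over Mock of 0.55 (SE 0.051). Fdft1 and Gm6781 (chromosome 14, 18531363 to 18532460), which held 54.2% to 57.8% of their joint counts, gave an excess over Mock of 0.36 (SE 0.063), against 0.35 for Fdft1 alone. Acat2 and Acat3, its neighbour on chromosome 17, shared 40.7% of the 75-base runs, and their sum was lower than Mock by 0.40 (SE 0.072, adjusted p = 4.84e-04) after washout. Acat3 itself had 17.7, 5.43 and 14.1 CPM in the 3 groups. The Acat2 transcript also shared 11% of its runs with Tcp1, a chaperonin subunit gene with mean levels of 564, 320 and 433 CPM in the 3 groups. Mvk, Pmvk, Mvd and Sqle had no such run in any other annotated transcript, and Hmgcs1 shared 12.2% with Gm48342, an antisense transcript with no row of that name in the count tables.

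**Figure D4:**
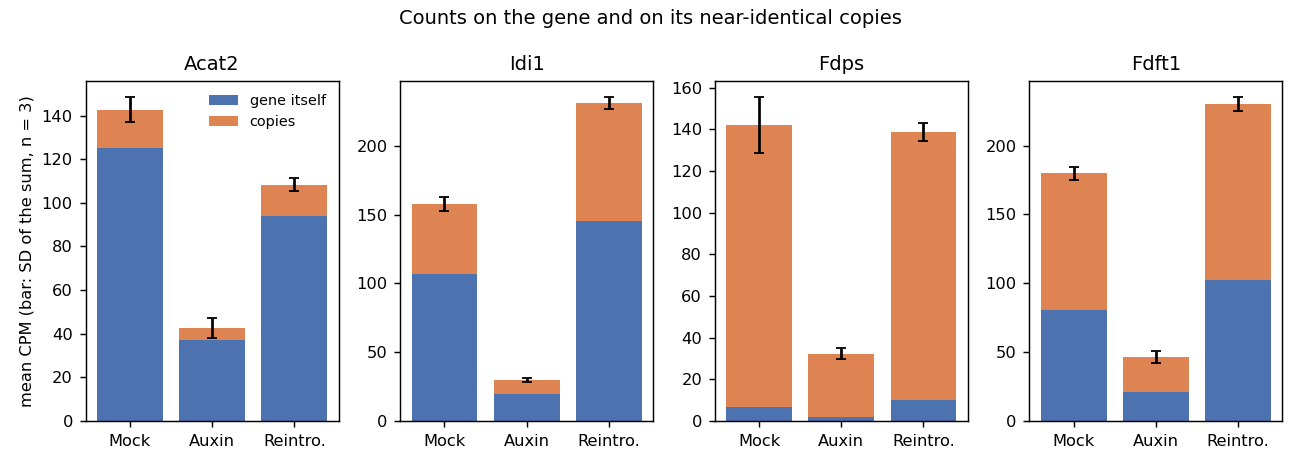
Mean CPM (vertical axes from 0) of 4 genes in blue and of their near-identical copies stacked in orange, with the SD of the sum over 3 libraries. The copies hold nearly all counts of the Fdps group, the larger share for Fdft1 and the smaller share for Idi1 and Acat2, and all 4 sums are lowest in Auxin.

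Mvk shares its promoter region with Mmab, a gene of cobalamin metabolism on the opposite strand, whose start lies 209 bp from that of Mvk in the count tables' annotation. Mmab stood at 13.22, 11.77 and 11.37 CPM in the Mock libraries, at 11.24, 11.83 and 12.12 CPM with auxin and at 13.64, 12.25 and 13.16 CPM after washout. The Mock range overlapped both others, while Reintroduction lay above Auxin without overlap, as it did for 28.8% of all genes. Mmab was called in none of the 3 comparisons (log2 fold change -0.05, SE 0.075, adjusted p = 0.571 in Auxin against Mock). Its direction in that comparison reversed under some alternatives, and with total counts (0.24) or with length and GC trends removed (0.23) it was called higher in Reintroduction than in Mock. The latter setting also called it higher than in Auxin (0.20). The ratio of Mvk counts to Mmab counts was 2.5, 2.33 and 2.59 in the Mock libraries, 1.42, 1.42 and 1.21 with auxin, and 2.23, 2.5 and 2.3 after washout. Auxin lay below the other groups without overlap (exact two-sided permutation p = 0.1 for each, the smallest possible), and Mock and Reintroduction overlapped (p = 0.2). Both genes' windows cover the CCAAT-rich stretch printed above for Mvk, and that of Mmab also held 5 matches.

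Among paralogs that work elsewhere in the cell, Acat1, the mitochondrial thiolase, fell from 22.99 ± 0.857 to 16.68 ± 1.35 CPM in Auxin (-0.46, SE 0.071, adjusted p = 1.10e-04), and its change after washout did not pass (0.17). Idi2, a paralog of Idi1, did not reach the level for a test, with at most 0.157 CPM in any library.

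Of 7 genes that control the pathway, 3 were called higher, 3 lower and 1 not in Auxin, near the 38.4% higher and 34.8% lower of all genes. Insig1, itself a target of SREBP factors that retains them in the endoplasmic reticulum, had 100.1 ± 1.41, 21.1 ± 1.02 and 130.1 ± 2.31 CPM in the Mock, Auxin and Reintroduction groups, a fall of 2.24 and a rise of 2.62 on the log2 scale. Srebf2 stood at 186.6, 189.4 and 182.2 CPM in the Mock libraries, at 104.6, 114.9 and 101.9 CPM with auxin and at 208.4, 213.4 and 218.1 CPM after washout, a fall of 0.80 (SE 0.055) and a rise of 0.99 (SE 0.056) on the log2 scale. Srebf1, which codes for the form best known for fatty acid genes, fell by 1.11 (SE 0.050) and rose by 0.75 (SE 0.050), and stayed below Mock (-0.36, SE 0.050). Insig2 ran the other way, with 31.3 ± 0.655, 48.5 ± 1.49 and 40.0 ± 1.28 CPM, a rise of 0.63 (SE 0.051) in Auxin and a fall of 0.28 after washout. Mbtps1 and Mbtps2, the proteases that release SREBP, were called higher in Auxin (0.19 and 0.50) and were not called in Reintroduction against Auxin. The Auxin libraries of Mbtps2 overlapped those of Mock. Its exons span 10105 bp, and length deciles 9 and 10 had median log2 fold changes of 0.37 and 0.59 in Auxin against Mock. The part of length in its call was not tested. In Reintroduction against Mock, Mbtps2 was called higher (0.47) and Mbtps1 was not called (0.06). Scap, the escort of SREBP, was not called in Auxin (0.08, SE 0.054) and was called higher after washout (0.25). With length trends removed, Scap was called lower in Auxin (-0.29), and with total counts it was called higher (0.28). In Reintroduction against Mock the call of Srebf2 (0.20) was lost with length trends removed (0.05) and without Mock replicate 3 (0.16, adjusted p = 0.055).

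Among the next enzymes, from squalene epoxide to cholesterol, all 11 were called lower in Auxin (median log2 fold change -0.99, from -2.15 for Dhcr7 to -0.16 for Hsd17b7) and all 11 higher after washout (median 1.29), against 34.8% of all genes called lower in Auxin and 25.5% called higher after washout. The number called lower in Auxin was 10 under 10 of the 18 alternatives, among them leaving out Mock replicate 2, Mock replicate 3 or Auxin replicate 3, and 9 with total counts. Dhcr7, a reductase of the final steps, fell by 2.15 (SE 0.069) on the log2 scale. Of 15 genes of the isoprenoid branches, which lead to prenylated proteins, dolichol and ubiquinone, 7 were called lower, 2 higher and 6 not in Auxin, with a median of -0.08. Over all genes, 38.4% were called higher in this comparison. Fntb, the beta subunit of farnesyltransferase, fell by 0.65 (SE 0.062), and Coq2, of ubiquinone synthesis, rose by 0.63 (SE 0.076). Against Auxin, 4 of the branch genes were called higher and 4 lower after washout, where 25.5% of all genes were called in each direction.

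Of 4 genes that supply acetyl-CoA, 2 were called lower and 2 higher in Auxin, and 2 to 4 were called under the alternatives. Acly, the ATP citrate lyase, fell by 1.18 (SE 0.056), whereas Acss1, a mitochondrial acetyl-CoA synthetase, rose by 0.87 (SE 0.079). Of 7 fatty acid synthesis genes, 5 were called lower and 1 higher in Auxin (median -0.88) and 6 were called higher after washout (median 1.09). The shares of all genes called were 34.8% lower and 38.4% higher in Auxin, and 25.5% higher after washout. Scd2, a desaturase, and Fasn, the fatty acid synthase, fell by 2.15 (SE 0.057) and 1.75 (SE 0.056). Of 9 genes of sterol uptake and export, 4 were called lower and 4 higher in Auxin. Abca1, a sterol exporter, rose by 2.92 (SE 0.145) in Auxin. Against these lists the median of all genes tested was 0.05 in Auxin against Mock and 0.003 in Reintroduction against Auxin.

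**Figure D5:**
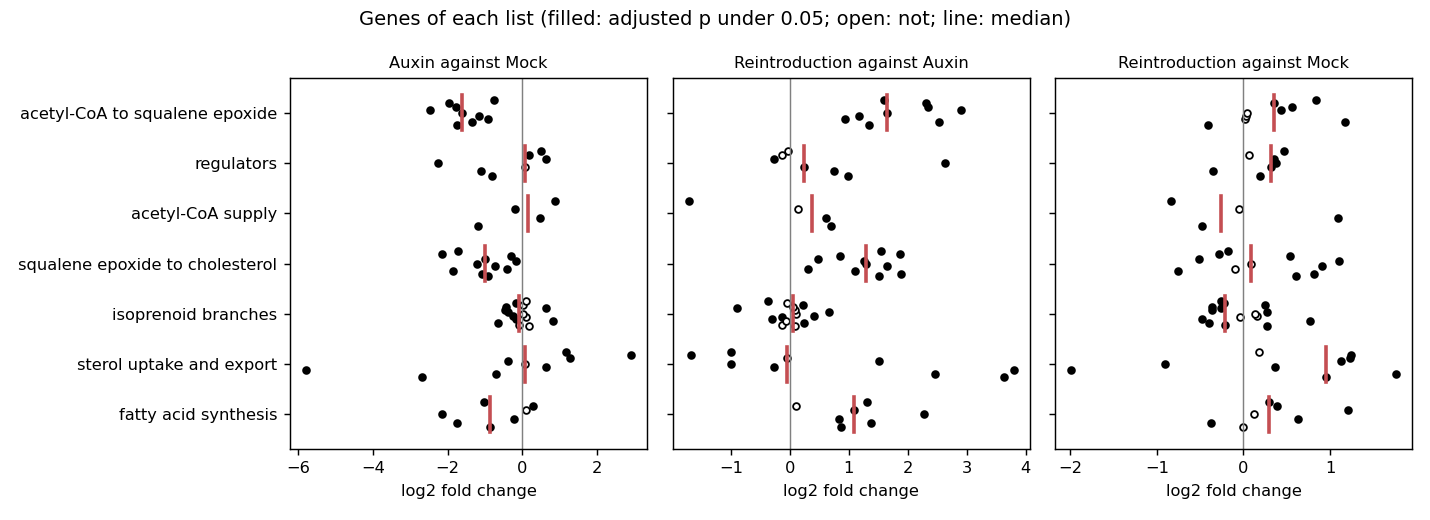
Log2 fold change (horizontal axis, scales differ between panels) of every tested gene of the pathway and of 6 lists of related genes, with the median of each as a line. The pathway genes and those from squalene epoxide to cholesterol lie wholly left of 0 in Auxin against Mock and wholly right of 0 in Reintroduction against Auxin, while the isoprenoid branches centre near 0.

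To find the genes with the most similar course, each gene with a mean of at least 5 CPM was compared with the mean standardised profile of the 9 mRNAs over the 9 libraries. Of 12022 such genes, members included, 340 had a Pearson correlation of at least 0.95. The 10 most alike outside the pathway were Gm8355 (0.9995), Gm6781, Insig1, Gm6210, Impa2, Hspa8, Ngfr, Gm37784, Noct and Vangl1 (0.9971). Gm6781 and Gm37784 are processed pseudogenes with sequence of Fdft1 and of Insig1. Gm8355 and Gm6210 are pseudogenes that share 43.3% and 25.4% of their 75-base runs with Hspa8, the constitutive HSC70 chaperone. Hspa8 had 1870, 598 and 2530 CPM in the 3 groups, falling by 1.65 and rising by 2.08 on the log2 scale. Impa2, an inositol monophosphatase gene, fell by 1.07 and rose by 1.22, and Ngfr, the nerve growth factor receptor, fell by 1.24 and rose by 1.40. Such likeness over 3 groups is a description and carries no statement on shared control.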

How the data were processed

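Polyadenylated RNA was sequenced as 75 bp paired-end reads, per the labels' protocols. The values deposited are unnormalised counts of reads over each gene, made by the authors with featureCounts 2.0.6 over exons of an mm10 annotation, in paired-end mode without counting pairs as 1 and without strand, per the file headers. The submitters' processing notes also list Trim Galore 0.6.10, FastQC 0.12.1, Bowtie2 2.5.3 and SAMtools 1.20, without their settings. Reads that cross exon junctions and reads shared by gene copies may therefore be counted away from their gene.

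Symbols were matched on the unversioned identifier (48058 of 48440 genes). Genes passing filterByExpr (20838) were scaled with TMM factors (0.905 to 1.079) and fitted in edgeR 4.0.16 (R 4.3.3, limma 3.58.1) over all 9 libraries, with group as the only term. Standard errors come from the F statistic. P-values are two-sided and Benjamini-Hochberg adjusted over all genes, with calls under 0.05. DESeq2 1.42.0 served as an alternative, and the fit was tested on simulated data. Alternatives were other size factors, total counts, other filters, the fit of 2 groups, a replicate block, removal of length and GC trends by 4-degree splines, halved counts and leaving out each library. GC content came from GENCODE M21 transcripts. Named genes are all members, the 2 genes with the smallest p-value in Auxin against Mock of each list, all regulators, neighbours within 1000 bp, paralogs, and the 10 of most similar course. Hsd17b7, Tcp1, the markers and the pseudogene copies were added after their values were seen. The members and lists were chosen with earlier results of these data known. Not every enzyme of the pathway, nor every gene this rule names, is reported here.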

Additional observations from a re-analysis of the deposited data

How the results depend on the processing

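In Auxin against Mock and in Reintroduction against Auxin, all 9 members kept their direction and call under each of 18 alternatives (162 values in each comparison). The same 9 were called with the replicate block, which changed no member's call in any comparison; in Reintroduction against Mock it gave 6 called members, as without it. Same-numbered libraries of different groups did not deviate together throughout (correlations from -0.546 to 0.450), so the numbers were not treated as pairs. In Reintroduction against Mock the number called ranged from 5 with copies added (chosen after seeing the data) to 9 with length and GC trends removed, and 8 were called with the length trend alone removed or with total counts. Of 162 values there, 145 kept direction and call, 9 became called and 8 reversed. Mvk reversed with DESeq2 size factors (-0.002) and the DESeq2 Wald test (-0.003), and ranged from -0.065 to 0.070 when a library was left out. Without Mock replicate 2, Mvk, Pmvk and Mvd were at -0.065, -0.040 and -0.016; Pmvk ranged up to 0.068 and Mvd up to 0.073 over the libraries left out, and Mvk was also below 0 without Mock replicate 3 (-0.018) or Reintroduction replicate 1 (-0.002). Fdps was at -0.034 with copies added. Total counts moved the median of all genes from 0.05 to 0.26 in Auxin against Mock and from 0.03 to 0.16 in Reintroduction against Mock, and called Pmvk (0.165) and Mvd (0.175) higher in the latter.

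Among other genes, Mmab in Auxin against Mock was at 0.163 with total counts, 0.022 with the filter of 1 CPM, 0.039 with length and GC trends removed and from -0.105 to 0.005 over the libraries left out (above 0 without Mock replicate 1). Scap in Auxin against Mock was at -0.292 with length trends removed, -0.158 with length and GC trends removed and -0.294 with the replicate block and length trends removed, and in Reintroduction against Mock at -0.050 with length trends removed and -0.051 with the block as well. Of the lists, the acetyl-CoA supply genes called in Auxin against Mock went from 4 to 2 and the regulators called in Reintroduction against Mock from 6 to 3 with length trends removed. The cause of these shifts was not tested.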
